A study of Arabidopsis thaliana with 18 samples.

Results

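The genes described are those for subunits of the 26S proteasome of Arabidopsis thaliana: 38 loci, taken by their AGI identifiers from 28424 entries of the pollen gene table and 24292 of the microspore gene table. They code for the 20S alpha ring (PAA to PAG, 13 genes), the 20S beta ring (PBA to PBG, 11 genes), the RPT ATPase ring (RPT1 to RPT6, 10 genes) and the subunits RPN1, RPN2 and RPN10 (4 genes). All 38 were found in both tables. They form 23 subunits, of which 15 are listed with a pair of paralogous genes and 8 with a single gene. RefSeq gives a subunit symbol for 32 loci, and the other 6 (AT1G79210, AT4G15165, AT3G26340, AT1G45000, AT5G20000 and AT2G32730) are called PAB2, PAC2, PBE2, RPT4B, RPT6B and RPN2A here, after the subunit they are listed under. The list was drawn up by subunit class with the levels of these genes in the 6 groups already known, so their levels and folds are given as descriptions and no p-value is printed for any of them.

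The proteasome is the protease that removes proteins tagged with ubiquitin. Its 20S core is a barrel of alpha rings, which gate the entrance, and beta rings, of which PBA, PBB and PBE hold the caspase-like, trypsin-like and chymotrypsin-like active sites. The 19S cap binds the tagged substrate, and its RPT ATPases unfold it and feed it into the core, while RPN1 and RPN2 are scaffolds and RPN10 is a ubiquitin receptor. In Arabidopsis most subunits have paralogous genes, and loss of both RPT2 genes or both RPT5 genes is known to block gametophyte development.

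RNA was measured in 18 libraries of Col-0 plants, 3 in each of 6 groups. In the line V-Mt, REF6, a demethylase of lysine 27 on histone H3, is fused to GFP and driven by the Lat52 promoter of the pollen vegetative cell. Its second marker is a histone fused to RFP under the HTR10 promoter, which the labels write as HTR10 for the microspores and number from HTR10 to HTR15 over the pollen libraries. The WT pollen line carries H2B-GFP under the ACTIN11 promoter with HTR10-RFP under its own promoter, and the WT microspore line has the RFP fusion alone, so every group shares an RFP marker and V-Mt VC and WT VC differ also in the GFP fusion used to sort them. Nuclei of vegetative cells (VC) and sperm cells (SC) were sorted from mature pollen by GFP and RFP, and late microspores (LMS), the stage before the pollen mitosis that founds both cell types, were sorted whole from buds of unstated plant age. Nuclear polyadenylated RNA is therefore set against whole-cell RNA, and the authors deposited both as FPKM (fragments per kilobase of transcript, scaled to the fragments of a library) in separate tables. Nothing in the labels ties a replicate to its own plants. A p-value here thus covers the spread among libraries of the same group, and that spread may be technical. For each gene this spread was estimated jointly over all pollen groups, or over both microspore groups. An SE or call for vegetative nuclei therefore also reflects the spread of the sperm libraries.

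REF6 read 1303, 2248 and 3001 FPKM in V-Mt VC and 1.10, 0.42 and 0.48 in WT VC, and 1160.1, 1175 and 506 FPKM in V-Mt LMS and 77.7, 108 and 125 in WT LMS. In sperm nuclei it was 28.9, 58.4 and 436 FPKM in V-Mt SC against 24.6, 23.2 and 10.8 in WT SC. Depth, read off the spacing of the lowest values, was 9500000 to 15400000 fragments per library in V-Mt VC, V-Mt SC and WT SC, 18200000 to 22200000 in WT VC and 2000000 to 3100000 in microspores. By that estimate, 1 fragment on 1 kb was worth about 0.045 to 0.105 FPKM in pollen and 0.319 to 0.506 in microspores, the floor under which levels cannot be told apart. At 1 FPKM or more stood 18735 to 18932 genes in V-Mt VC and 8093 to 8386 in WT VC. The 5 vegetative cell markers summed to 852, 761 and 825 FPKM in V-Mt VC and 3347, 3193 and 2946 in WT VC, with 4 of 5 lower in V-Mt VC by limma. Of all tested genes, 10.8% were called lower and 62.5% higher in V-Mt VC than in WT VC. These shares stand beside this and the following marker counts. The 5 sperm markers summed to 16817 to 25813 FPKM in sperm nuclei. Their sum in V-Mt VC was 3224 to 3527, against 172 to 225 in WT VC, and 4 of 5 were higher and 1 (GEX2) lower in V-Mt VC than in WT VC. DAN1 made up most of the V-Mt VC sum. Tapetum markers (5 of 7 tested, all 5 higher) were at 40.6 to 50.7 FPKM in V-Mt VC together, but at 0.59 to 6.57 in WT VC, and ATA7 was at 0 in 2 of 3 V-Mt VC libraries. All 5 passed the filter for testing (1 FPKM in at least 3 libraries) only through V-Mt VC. The filter itself thus favoured a higher call, and nothing is read from that count. Leaf photosynthesis markers (4 of 5 tested, 3 higher) summed to 53.5 to 62.4 FPKM in V-Mt VC and reached 1.53 at most in WT VC. Of these 4, 1 passed that filter only through V-Mt VC. In bulk nuclei, fewer cells of a type and less RNA per cell cannot be told apart, and the part of these markers in the results was not tested.

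Proteasome subunit genes were far more abundant in V-Mt VC than in WT VC. Their summed level was 5687, 5649.9 and 5406 FPKM in V-Mt VC and 315, 332 and 346 in WT VC, that is 0.575% to 0.605% of all FPKM against 0.0353% to 0.0376%. The median gene stood at 144, 136 and 104 FPKM in V-Mt VC and at 1.21, 0.92 and 1.03 in WT VC. Of the 38 genes, 33 were called higher and 0 lower in V-Mt VC (limma, Benjamini-Hochberg adjusted p under 0.05 over 19733 genes), where 62.5% of all tested genes were called higher and 10.8% lower. The median log2 fold change of FPKM + 1 was 5.12 for the 38 genes and 1.92 over all tested genes, a gap of 3.20, and nothing is read from this contrast because the levels were known when the list was made. For 35 genes the lowest V-Mt VC library lay above the highest WT VC library, as it did for 72.5% of all tested genes, and for 0 genes the reverse held (14.5%). By class, 10 of 13 alpha genes, 11 of 11 beta genes, 8 of 10 RPT genes and 4 of 4 RPN genes were called higher. The 5 that were not called were PAB2, PAD1, PAD2, RPT5B and RPT6A. A gene could enter the test through V-Mt VC alone: 33 of the 38 passed the expression filter without those libraries. The other 5 were PAB1, PAC2, PAE2, PBB2 and PBE1. All of these were called higher, a call that the filter itself favoured. The other groups lay between, with summed levels of 538, 544 and 544 FPKM in V-Mt SC, for WT SC 942, 1157 and 392, 2304 to 2734 in V-Mt LMS and 2625 to 3795 in WT LMS, the latter pair from the separate table.

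**Figure D1:**
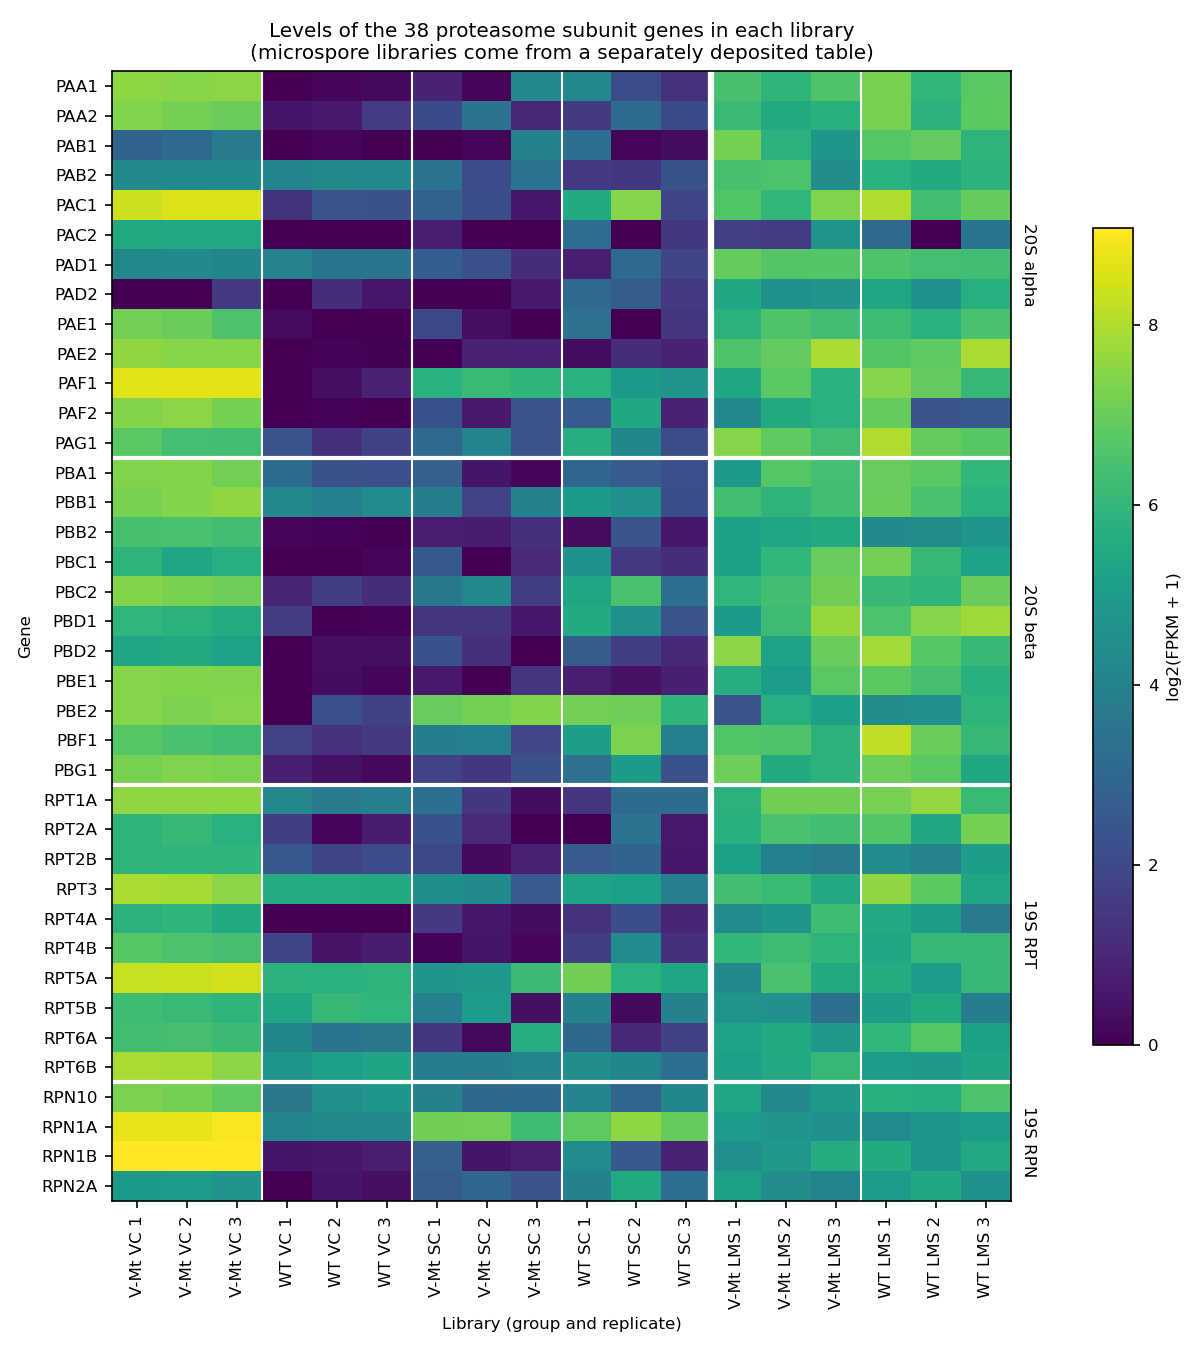
Level of each of the 38 genes (rows, grouped by class) in each of the 18 libraries (columns), as log2(FPKM + 1) by colour. V-Mt VC is bright in every row but PAD2, with PAB1, PAB2 and PAD1 dim, WT VC is dark outside a few RPT genes and single genes of the other classes, and the microspore libraries, from a separate table, are lit in nearly every row but PAC2.

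Among the alpha ring genes, those for PAA, PAC, PAE, PAF and PAG stood at 4.23 FPKM at most in WT VC and were abundant in V-Mt VC, whereas those for PAB and PAD stood at 19.4 FPKM at most in both. PAA1 stood at 187, 177 and 179.8 FPKM in V-Mt VC and 0, 0.13 and 0.14 in WT VC. Its paralog PAA2 stood at 164, 145 and 129 FPKM in V-Mt VC and 0.43, 0.55 and 1.97 in WT VC. The V-Mt VC and WT VC libraries of both genes were far apart, with log2 folds of 7.39 (SE 0.99) and 6.29 (SE 0.63). In sperm nuclei PAA1 held 0.89, 0.08 and 18.2 FPKM in V-Mt SC against 17.8, 3.21 and 1.43 in WT SC, and PAA2 held 3.16, 10.1 and 1.03 FPKM in V-Mt SC against 1.90, 8.26 and 3.09 in WT SC. These sperm levels were scattered, PAA1 being highest in replicate 3 of V-Mt SC and replicate 1 of WT SC, and PAA2 in replicate 2 of each group. The microspore levels of PAA1 were 85.5, 61.1 and 93.8 FPKM in V-Mt LMS and 148, 63.8 and 106 in WT LMS, and those of PAA2 were 71.3, 46.2 and 53.1 FPKM in V-Mt LMS and 148, 57.8 and 110.0 in WT LMS. PAA1 made up 55.5% ± 2.46 (SD, n = 3) of the summed pair in V-Mt VC, 58.4% ± 4.85 (SD, n = 3) in V-Mt LMS and 50.6% ± 1.71 (SD, n = 3) in WT LMS.

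Of the PAB pair, PAB1 was called higher in V-Mt VC and PAB2 was not, but PAB1 passed the expression filter only through V-Mt VC. PAB1 held 6.4, 7.66 and 12.3 FPKM in V-Mt VC and 0, 0.13 and 0 in WT VC, a log2 fold of 3.18 (SE 1.06). PAB2 held 19.4, 17.8 and 18.8 FPKM in V-Mt VC and 16.0, 18.2 and 17.7 in WT VC, so the groups overlapped. Its log2 fold was 0.10 (SE 0.40) as deposited and -2.15 under quantile normalization. Within WT VC nearly all PAB signal came from PAB2. Sperm nuclei had 0, 0.08 and 14.4 FPKM in V-Mt SC against 9.02, 0.12 and 0.23 in WT SC for PAB1, and 9.89, 3.35 and 10.3 FPKM in V-Mt SC against 1.82, 1.71 and 3.79 in WT SC for PAB2. PAB2 was therefore lower in WT SC than in WT VC, without overlap. Microspores held both at higher levels, with 146, 56.8 and 26.9 FPKM in V-Mt LMS and 101.37, 118.24 and 59.1 in WT LMS for PAB1 and 86.5, 89.5 and 21.2 FPKM in V-Mt LMS and 54.9, 46.2 and 57.1 in WT LMS for PAB2. Neither PAD gene was called. PAD1 stood at 17.9, 18.2 and 17.0 FPKM in V-Mt VC and 15.1, 10.5 and 10.5 in WT VC, with a log2 fold of 0.54 (SE 0.57) as deposited and -1.88 under quantile normalization. PAD2 stood at 0, 0 and 1.94 FPKM in V-Mt VC and 0, 1.28 and 0.45 in WT VC, with a log2 fold of -0.06 (SE 0.52). PAD2 was at 0 in 2 of 3 V-Mt VC libraries, the only one of the 38 genes listed at 0 there. In sperm nuclei PAD1 read 5.64, 3.60 and 1.23 FPKM in V-Mt SC against 0.70, 7.52 and 2.73 in WT SC, and PAD2 read 0, 0 and 0.57 FPKM in V-Mt SC against 7.53, 5.41 and 1.83 in WT SC. Among all 18 libraries PAD2 exceeded PAD1 in WT SC replicate 1 alone. Both genes were abundant in microspores, PAD1 at 121, 100.76 and 99.1 FPKM in V-Mt LMS and 95.3, 81.6 and 77.6 in WT LMS and PAD2 at 42.1, 23.6 and 25.9 FPKM in V-Mt LMS and 40.3, 23.7 and 52.6 in WT LMS, and PAD1 made up 78.2% ± 3.57 (SD, n = 3) and 69.1% ± 9.01 (SD, n = 3) of the pair.

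PAC1 and PAF1 were the most abundant alpha genes of V-Mt VC. PAC1 held 337, 381 and 383 FPKM in V-Mt VC and 1.51, 4.01 and 3.71 in WT VC, a log2 fold of 6.56 (SE 1.13), and in sperm nuclei 6.31, 3.55 and 0.49 FPKM in V-Mt SC against 45.6, 174 and 2.77 in WT SC. WT SC replicates 1 and 2 stood apart from the other sperm libraries. PAC2 had V-Mt VC levels of 44.9, 43.3 and 44.1 FPKM and was at 0 throughout WT VC, so no fold is given; a listed 0 may be a failed estimate and not absence. Sperm nuclei had 0.71, 0 and 0 FPKM in V-Mt SC against 8.80, 0 and 1.71 in WT SC for PAC2. In microspores PAC1 stood at 97.9, 64.0 and 164 FPKM in V-Mt LMS and 254, 79.4 and 121 in WT LMS, and PAC2 at 2.29, 2.07 and 24.8 FPKM in V-Mt LMS and 7.82, 0 and 10.5 in WT LMS. PAC1 was the larger member in every library. PAF1 held 395, 419.9 and 413 FPKM in V-Mt VC and 0, 0.29 and 0.86 in WT VC and PAF2 167, 183 and 144 FPKM in V-Mt VC and 0, 0.07 and 0 in WT VC, with log2 folds of 8.26 (SE 0.33) and 7.33 (SE 0.92). In sperm nuclei PAF1 kept a level of 55.2, 68.5 and 60.0 FPKM in V-Mt SC against 55.2, 29.8 and 25.8 in WT SC. PAF2 read 3.84, 0.59 and 4.22 FPKM in V-Mt SC against 5.24, 41.7 and 0.86 in WT SC. PAF1 was thus above the WT VC libraries in all 6 sperm libraries. Microspores held 42.5, 107 and 54.3 FPKM in V-Mt LMS and 172, 119.8 and 65.4 in WT LMS for PAF1 and 18.9, 45.0 and 54.9 FPKM in V-Mt LMS and 120.3, 4.31 and 4.80 in WT LMS for PAF2. PAE1 (91.95 to 140.8 FPKM) and PAE2 (174.9 to 189.1) were also abundant in V-Mt VC, and no WT VC library exceeded 0.21 for either. In sperm nuclei PAE1 reached 9.61 FPKM in WT SC replicate 1 and PAE2 was at 0 to 0.89 in V-Mt SC. In microspores PAE1 stood at 54.6 to 94.0 FPKM and PAE2 at 94.3 to 242.1. PAG1, the only PAG gene, held 107, 81.1 and 80.4 FPKM in V-Mt VC and 4.23, 1.35 and 2.42 in WT VC, 7.83, 16.2 and 4.18 FPKM in V-Mt SC against 49.1, 16.9 and 3.34 in WT SC, and 174, 114 and 77.3 FPKM in V-Mt LMS and 253, 120.1 and 104.58 in WT LMS. Its WT SC libraries spread from 3.34 to 49.1 and overlapped V-Mt SC.

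All 11 beta ring genes were called higher in V-Mt VC, the 3 catalytic subunits included, against 62.5% of all tested genes. Of these genes, PBB2 and PBE1 passed the expression filter only through V-Mt VC. PBA1, the only PBA gene, held 165, 167 and 141 FPKM in V-Mt VC and 8.06, 3.71 and 3.63 in WT VC, with a log2 fold of 4.76 (SE 0.61). In sperm nuclei it held 5.84, 0.42 and 0.13 FPKM in V-Mt SC against 6.81, 5.09 and 3.63 in WT SC, and in microspores 29.7, 102 and 82.2 FPKM in V-Mt LMS and 125, 109 and 64.4 in WT LMS. PBB1 held 152, 169.7 and 191 FPKM in V-Mt VC and 19.2, 14.0 and 19.7 in WT VC and PBB2 86.7, 88.3 and 77.3 FPKM in V-Mt VC and 0.12, 0.06 and 0 in WT VC. In WT VC PBB1 was thus well above the floor and PBB2 near it. The log2 folds were 3.22 (SE 0.72) and 6.33 (SE 0.49). PBB1 made up 99.7% ± 0.32 (SD, n = 3) of the pair in WT VC and 66.9% ± 3.83 (SD, n = 3) in V-Mt VC. Sperm nuclei had 13.2, 2.60 and 14.9 FPKM in V-Mt SC against 29.8, 23.4 and 3.58 in WT SC for PBB1, and 0.69, 0.61 and 1.36 FPKM in V-Mt SC against 0.21, 4.25 and 0.50 in WT SC for PBB2. In microspores PBB1 read 79.1, 58.9 and 79.5 FPKM in V-Mt LMS and 129.6, 88.5 and 54.7 in WT LMS and PBB2 35.3, 39.5 and 45.0 FPKM in V-Mt LMS and 18.2, 21.0 and 27.3 in WT LMS, so PBB1 was the larger member in all 18 libraries.

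The PBE pair divided differently. PBE1 held 172, 166 and 163 FPKM in V-Mt VC and 0, 0.24 and 0.09 in WT VC, a log2 fold of 7.25 (SE 0.36), and PBE2 held 172, 161 and 169.9 FPKM in V-Mt VC and 0, 3.61 and 2.48 in WT VC, a log2 fold of 6.06 (SE 0.52). Both were near equal in V-Mt VC. In sperm nuclei PBE1 was at 0.52, 0 and 1.55 FPKM in V-Mt SC against 0.71, 0.33 and 0.76 in WT SC, whereas PBE2 was at 125, 143 and 167 FPKM in V-Mt SC against 143, 135 and 60.8 in WT SC. All sperm libraries of PBE2 were above all of PBE1, and V-Mt SC overlapped V-Mt VC for PBE2. In microspores PBE1 stood at 49.7, 31.5 and 107 FPKM in V-Mt LMS and 109, 83.6 and 53.9 in WT LMS and PBE2 at 4.11, 52.0 and 33.7 FPKM in V-Mt LMS and 20.9, 23.3 and 59.1 in WT LMS. PBE1 accordingly made up 49.9% ± 0.86 (SD, n = 3) of the pair in V-Mt VC, 0.45% ± 0.46 (SD, n = 3) in V-Mt SC, 0.66% ± 0.51 (SD, n = 3) in WT SC and 69.9% ± 19.5 (SD, n = 3) in WT LMS. In pollen, however, 97.8% of the PBE2 level came from transcripts without an AGI name.

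The promoters of 4 catalytic subunit genes are shown because PBB1 stood well above PBA1, PBB2 and PBE1 in WT VC. Each run is the 250 bases before the annotated gene start in RefSeq TAIR10.1, 5′ to 3′ on the gene's strand, and overlaps no exon. Capitals mark TGGGC and its reverse complement GCCCA, the core of the site that the transcription factors NAC53 and NAC78 bind at proteasome genes in Arabidopsis. The windows are chr4:15188494-15188743 (plus strand) for PBA1, chr3:10152208-10152457 (plus strand) for PBB1, chr5:16250926-16251175 (minus strand) for PBB2 and chr1:4451940-4452189 (plus strand) for PBE1.
PBA1: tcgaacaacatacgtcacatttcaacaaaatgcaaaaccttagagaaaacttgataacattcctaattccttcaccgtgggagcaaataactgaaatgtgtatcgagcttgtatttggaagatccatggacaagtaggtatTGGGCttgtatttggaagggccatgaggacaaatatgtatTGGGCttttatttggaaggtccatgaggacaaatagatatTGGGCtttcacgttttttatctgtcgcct
PBB1: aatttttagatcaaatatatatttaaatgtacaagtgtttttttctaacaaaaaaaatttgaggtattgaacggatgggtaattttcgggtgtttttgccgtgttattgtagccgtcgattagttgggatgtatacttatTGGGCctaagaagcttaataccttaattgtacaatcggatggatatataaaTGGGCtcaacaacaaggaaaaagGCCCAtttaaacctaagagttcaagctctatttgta
PBB2: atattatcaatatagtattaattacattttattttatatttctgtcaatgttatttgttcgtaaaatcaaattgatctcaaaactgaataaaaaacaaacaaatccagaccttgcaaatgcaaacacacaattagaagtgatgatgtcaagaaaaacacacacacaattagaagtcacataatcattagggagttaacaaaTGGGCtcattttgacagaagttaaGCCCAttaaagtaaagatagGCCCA
PBE1: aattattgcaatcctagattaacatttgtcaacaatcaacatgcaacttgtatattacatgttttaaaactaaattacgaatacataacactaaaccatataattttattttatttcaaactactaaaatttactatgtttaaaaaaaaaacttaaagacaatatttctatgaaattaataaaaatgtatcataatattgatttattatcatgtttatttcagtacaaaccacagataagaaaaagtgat
PBA1, PBB1 and PBB2 hold 3 matches each and PBE1 none, and the window of its paralog PBE2, not shown, holds 2. The matches lie 109, 69 and 29 bases before the start in PBA1, 110, 59 and 36 in PBB1, and 49, 25 and 5 in PBB2. Any link between these matches and the RNA levels was not tested. Across the 38 genes, TGGGC in either orientation was found in 18 windows (47.4%), against 6231 of 27438 promoters of the annotation (22.7%). At least 2 matches were found in 15 of the 38 (39.5%) and in 12.6% of all promoters. The longer TGGGCC, which contains it, was in 14 (36.8%) and 13.7%. Of the 5 genes not called in V-Mt VC, PAD1 has 3 matches and PAD2 has 2, and PAB2, RPT5B and RPT6A have none. A match is a run of letters and not evidence of binding.

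The PBC and PBD pairs were low in WT VC and rose together in V-Mt VC. PBC1 held 59.6, 41.03 and 51.9 FPKM in V-Mt VC and 0, 0 and 0.12 in WT VC and PBC2 167, 151 and 134 FPKM in V-Mt VC and 0.90, 2.25 and 1.2 in WT VC, with log2 folds of 5.63 (SE 0.86) and 5.98 (SE 0.80). In sperm nuclei PBC1 stood at 4.6, 0 and 1.15 FPKM in V-Mt SC against 23.6, 1.83 and 1.22 in WT SC. PBC2 stood at 11.9, 19.3 and 2.24 FPKM in V-Mt SC against 41.02, 87.3 and 8.98 in WT SC. PBC2 was the larger member in every sperm library. In microspores PBC1 held 35.5, 63.2 and 126 FPKM in V-Mt LMS and 142, 65.5 and 37.5 in WT LMS and PBC2 62.7, 79.3 and 136 FPKM in V-Mt LMS and 66.6, 60.0 and 129 in WT LMS, and each was the larger in some libraries. PBD1 held 62.0, 56.6 and 46.8 FPKM in V-Mt VC and 2.15, 0 and 0.07 in WT VC and PBD2 40.4, 45.0 and 37.5 FPKM in V-Mt VC and 0, 0.30 and 0.25 in WT VC, with log2 folds of 5.22 (SE 0.75) and 5.15 (SE 0.57). In sperm nuclei PBD1 stood at 1.57, 1.58 and 0.50 FPKM in V-Mt SC against 45.8, 22.8 and 3.95 in WT SC, so that every WT SC library was above every V-Mt SC library. PBD2 stood at 3.85, 1.38 and 0 FPKM in V-Mt SC against 5.33, 2.19 and 1.05 in WT SC. The microspore levels were 30.1, 73.2 and 199 FPKM in V-Mt LMS and 89.9, 172 and 219.8 in WT LMS for PBD1, and 181, 37.5 and 128 FPKM in V-Mt LMS and 227, 104 and 67.2 in WT LMS for PBD2. PBF1 and PBG1 are single genes. PBF1 held 102, 87.2 and 78.3 FPKM in V-Mt VC and 2.61, 1.48 and 1.94 in WT VC, 13.2, 14.3 and 2.79 FPKM in V-Mt SC against 32.7, 158 and 14.0 in WT SC, and 97.9, 94.8 and 56.7 FPKM in V-Mt LMS and 294, 131 and 64.9 in WT LMS. PBG1 held 147, 164 and 157 FPKM in V-Mt VC and 0.74, 0.33 and 0.15 in WT VC, 2.53, 1.69 and 3.77 FPKM in V-Mt SC against 9.55, 30.2 and 3.94 in WT SC, and 134, 44.4 and 57.2 FPKM in V-Mt LMS and 134, 107 and 41.5 in WT LMS. Both were highest among sperm libraries in WT SC replicate 2.

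Several RPT ATPase genes kept RNA in WT VC. Their median in WT VC was 17.3, 11.4 and 12.5 FPKM, against 0, 0.29 and 0.45 for alpha genes and 0.74, 0.33 and 0.25 for beta genes. RPT5A held 322, 323 and 356 FPKM in V-Mt VC and 57.1, 55.3 and 58.8 in WT VC and RPT5B 76.0, 69.2 and 61.2 FPKM in V-Mt VC and 39.6, 65.7 and 62.0 in WT VC. The RPT5B levels of V-Mt VC and WT VC overlapped, and those of RPT5A did not. The log2 folds were 2.53 (SE 0.46) for RPT5A and 0.33 (SE 1.20) for RPT5B. RPT5A made up 51.1% ± 7.00 (SD, n = 3) of the pair in WT VC and 82.8% ± 2.27 (SD, n = 3) in V-Mt VC. Sperm nuclei held 26.7, 28.2 and 72.5 FPKM in V-Mt SC against 138, 54.4 and 40.7 in WT SC for RPT5A, and 13.9, 30.6 and 0.30 FPKM in V-Mt SC against 14.9, 0.15 and 14.9 in WT SC for RPT5B. RPT5B thus spread from 0.15 to 30.7 FPKM over the 6 sperm libraries. In microspores RPT5A held 18.7, 87.7 and 44.4 FPKM in V-Mt LMS and 47.8, 30.6 and 66.0 in WT LMS and RPT5B 25, 23.4 and 9.29 FPKM in V-Mt LMS and 32.7, 44.8 and 12.9 in WT LMS.

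RPT6A and RPT6B are neighbours on chromosome 5, 1317 bases apart, and their coding sequences are 94.4% identical with a shared run of 104 bases, so reads could be split between them uncertainly. RPT6A held 78.2, 84.2 and 71.9 FPKM in V-Mt VC and 17.2, 10.7 and 11.3 in WT VC and RPT6B 242, 237 and 179.7 FPKM in V-Mt VC and 26.5, 34.0 and 38.5 in WT VC. Both were higher in every V-Mt VC library than in any WT VC library, with log2 folds of 2.52 (SE 1.12) and 2.70 (SE 0.31). RPT6A was not called, with an SE that also takes in the spread of its sperm libraries. In sperm nuclei RPT6A held 1.73, 0.15 and 49.5 FPKM in V-Mt SC against 7.49, 1.05 and 2.45 in WT SC, and RPT6B held 13.4, 12.9 and 15.6 FPKM in V-Mt SC against 20.9, 17.2 and 8.89 in WT SC. RPT6B was even across the sperm libraries and RPT6A was not. In microspores RPT6A held 37.4, 45.8 and 29.2 FPKM in V-Mt LMS and 64.3, 102 and 35.0 in WT LMS and RPT6B 34.2, 43.9 and 64.6 FPKM in V-Mt LMS and 30.6, 29.1 and 38.1 in WT LMS. RPT3, which has no paralog in the list, held 243, 232 and 180.0 FPKM in V-Mt VC and 47.5, 47.3 and 45.2 in WT VC, a log2 fold of 2.19 (SE 0.50). Its other levels were 22.1, 18.8 and 5.07 FPKM in V-Mt SC against 37.0, 34.1 and 13.9 in WT SC, and 80.5, 68.9 and 44.1 FPKM in V-Mt LMS and 191, 109 and 39.7 in WT LMS. RPT1A held 191, 191 and 183 FPKM in V-Mt VC and 17.3, 12.2 and 13.7 in WT VC, a log2 fold of 3.64 (SE 0.70), and its other levels were 8.85, 1.77 and 0.22 FPKM in V-Mt SC against 1.61, 8.10 and 8.21 in WT SC, and 56.5, 138 and 136 FPKM in V-Mt LMS and 148, 193 and 68.8 in WT LMS. AT1G53780 (RPT1B) is outside the list and annotated as a 26S proteasome regulatory complex ATPase. It held 149.9, 174 and 140.3 FPKM in V-Mt VC and 64.5, 93.6 and 99.3 in WT VC, so it was above RPT1A in each WT VC library. RPT1A alone therefore understates the RNA for RPT1.

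RPT2 and RPT4 were the ATPases scarcest in WT VC. RPT2A held 59.3, 66.5 and 55.0 FPKM in V-Mt VC and 2.20, 0.12 and 0.65 in WT VC and RPT2B 58.8, 60.5 and 60.8 FPKM in V-Mt VC and 4.82, 2.69 and 3.24 in WT VC, with log2 folds of 5.08 (SE 0.86) and 3.76 (SE 0.62). The pair was evenly shared in V-Mt VC, where RPT2A made up 50.03% ± 2.43 (SD, n = 3). Sperm levels were 3.92, 1.13 and 0 FPKM in V-Mt SC against 0, 9.93 and 0.54 in WT SC for RPT2A, and 2.93, 0.16 and 0.79 FPKM in V-Mt SC against 5.09, 6.49 and 0.49 in WT SC for RPT2B. In microspores RPT2A held 53.8, 87.5 and 79.3 FPKM in V-Mt LMS and 100.4, 41.1 and 144 in WT LMS and RPT2B 34.8, 14.3 and 12.4 FPKM in V-Mt LMS and 19.9, 15.2 and 33.0 in WT LMS, so that RPT2A made up 77.7% ± 14.7 (SD, n = 3) and 79.3% ± 5.54 (SD, n = 3). RPT4A had V-Mt VC levels of 56.4, 61.0 and 46.0 FPKM and was likewise at 0 throughout WT VC. RPT4B held 104, 91.9 and 84.5 FPKM in V-Mt VC and 2.76, 0.38 and 0.65 in WT VC, a log2 fold of 5.52 (SE 0.72). Sperm nuclei had 1.86, 0.45 and 0.22 FPKM in V-Mt SC against 1.45, 3.53 and 0.97 in WT SC for RPT4A, and 0.06, 0.43 and 0.09 FPKM in V-Mt SC against 2.23, 20.1 and 1.42 in WT SC for RPT4B. Microspores had 19.6, 26.7 and 75.0 FPKM in V-Mt LMS and 43.2, 33.1 and 12.7 in WT LMS for RPT4A, and 63.9, 74.4 and 59.5 FPKM in V-Mt LMS and 40.3, 66.2 and 65.5 in WT LMS for RPT4B. RPT4A made up 36.8% ± 2.68 (SD, n = 3) of the pair in V-Mt VC and 33.8% ± 17.7 (SD, n = 3) in WT LMS.

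Of the RPN genes, the RPN1 scaffold pair reached the highest levels of the 38 in V-Mt VC and divided between the groups. RPN1A held 435, 440.0 and 506 FPKM in V-Mt VC and 16.2, 17.7 and 17.3 in WT VC, a log2 fold of 4.67 (SE 0.28). RPN1B held 535, 542 and 541 FPKM in V-Mt VC and 0.42, 0.49 and 0.70 in WT VC, a log2 fold of 8.46 (SE 0.82). RPN1A alone was well above the floor in WT VC. In sperm nuclei RPN1A held 137, 143 and 76.6 FPKM in V-Mt SC against 112, 186 and 120.1 in WT SC, and RPN1B held 5.89, 0.42 and 0.68 FPKM in V-Mt SC against 20.3, 4.85 and 0.78 in WT SC. In microspores RPN1A held 31.0, 25.99 and 23.4 FPKM in V-Mt LMS and 19.9, 26.03 and 30.9 in WT LMS and RPN1B 22.3, 29.2 and 47.8 FPKM in V-Mt LMS and 46.2, 27.3 and 43.7 in WT LMS. RPN1A accordingly made up 97.0% ± 0.74 (SD, n = 3) of the pair in WT VC, 93.8% ± 7.96 (SD, n = 3) in WT SC and 98.2% ± 2.06 (SD, n = 3) in V-Mt SC, against 46.0% ± 2.03 (SD, n = 3) in V-Mt VC, 46.1% ± 12.7 (SD, n = 3) in V-Mt LMS and 40.1% ± 9.38 (SD, n = 3) in WT LMS. RPN10, the ubiquitin receptor, held 156, 145 and 115 FPKM in V-Mt VC and 11.6, 22.8 and 26.6 in WT VC, a log2 fold of 2.78 (SE 0.43). Its levels were 15.1, 7.35 and 7.26 FPKM in V-Mt SC against 15.7, 6.75 and 16.9 in WT SC, and 40.3, 18.96 and 29.1 FPKM in V-Mt LMS and 53.5, 49.2 and 93.7 in WT LMS. RPN2A, a scaffold gene, held 29.8, 30.9 and 25.7 FPKM in V-Mt VC and 0.02, 0.42 and 0.28 in WT VC, a log2 fold of 4.60 (SE 0.49), and 5.46, 6.72 and 4.26 FPKM in V-Mt SC against 14.6, 45.4 and 9.05 in WT SC. WT SC replicate 2 was the highest library of RPN2A among all 18, above V-Mt VC. Its microspore levels were 34.9, 21.5 and 16.0 FPKM in V-Mt LMS and 30.5, 42.7 and 24.1 in WT LMS. AT1G04810 (RPN2B), its paralog outside the list, held 63.8, 54.8 and 49.95 FPKM in V-Mt VC and 0.59, 0.40 and 0.32 in WT VC. RPN2A alone therefore understates the RNA for this subunit.

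**Figure D2:**
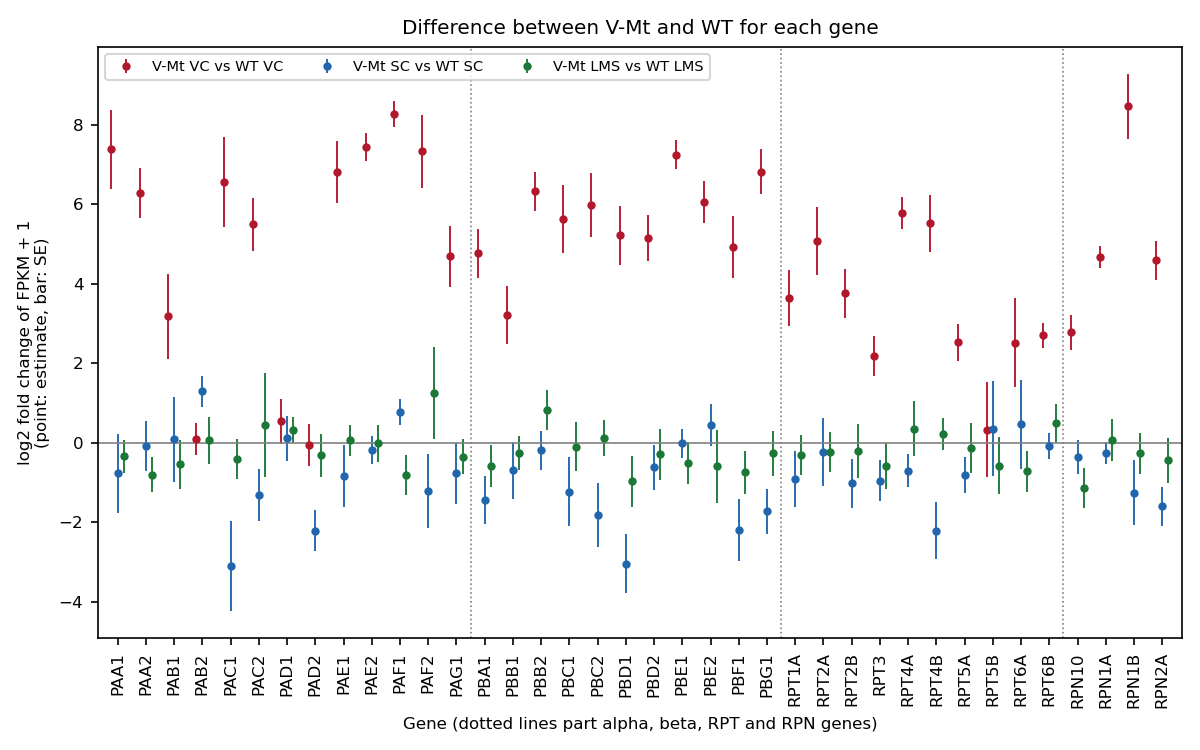
Log2 fold change of FPKM + 1 between V-Mt and WT for each gene, in vegetative nuclei, sperm nuclei and microspores. Points are limma estimates and bars are 1 SE, from a spread shared by all pollen groups or by both microspore groups. The vegetative points lie above 2 for 34 genes and near 0 for PAB2, PAD1, PAD2 and RPT5B. Most sperm and microspore points lie below 0, but 7 sperm points (up to 1.29) and 11 microspore points (up to 1.26) lie above it. The fitted values of PAC2 and RPT4A rest on WT VC libraries listed at 0.

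The share of a pair held by its first gene spanned more than 25 percentage points between the lowest and highest group mean for all pairs but PAC (18.1 points) and PAE (20.8 points). Shares of pairs that summed to a few FPKM, such as PAA, PAE, PAF and PBD in WT VC, moved on single fragments and are not read. In the PBE pair the sperm libraries, and in the RPN1 pair the WT VC and sperm libraries, held shares that did not overlap those of V-Mt VC and microspores, on pair sums per library of at least 16.6 FPKM for RPN1 and, WT VC aside, 53.8 FPKM for PBE. No share was tested, since paralog choice was part of what the list was made to describe. The coding sequences of the pairs were 70.4% (PAC) to 94.4% (RPT6) identical, and all 15 pairs shared a run of at least 23 bases. How the authors assigned reads that fit both genes is not given in the sources used here.

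**Figure D3:**
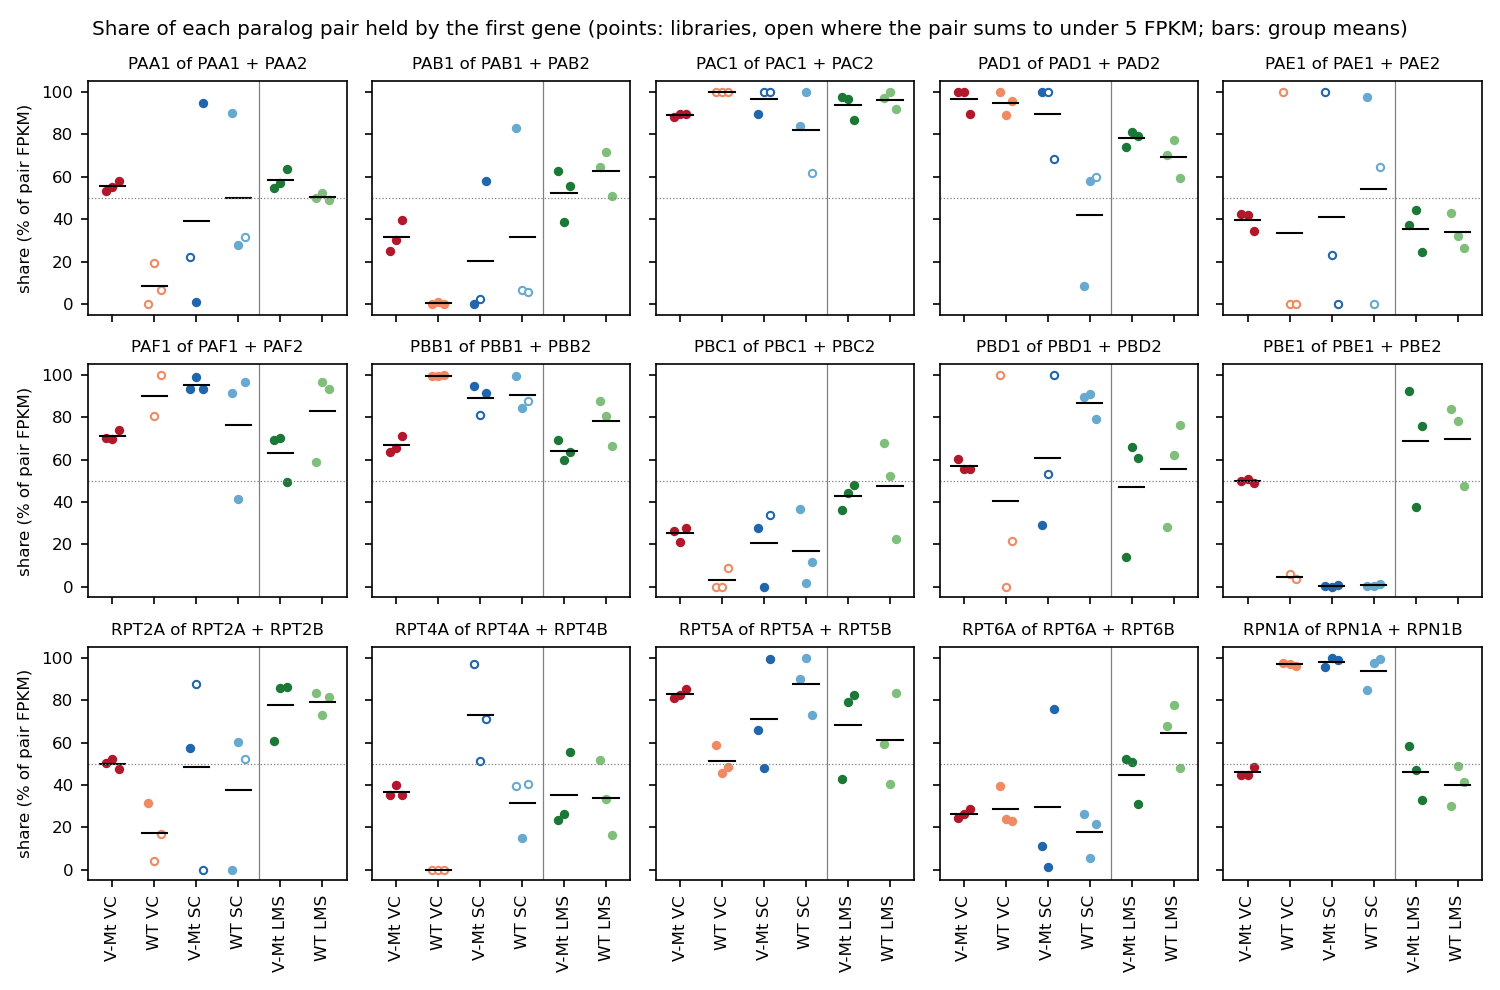
Percent of the summed FPKM of each of the 15 paralog pairs held by the first-named gene, by group. Each point is a library, open where the pair summed to under 5 FPKM, and black bars are group means; PBE1 falls to near 0 in sperm nuclei and RPN1A rises to near 100 in WT VC and both sperm groups.

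Gene levels in these tables include transcripts that carry no AGI name, and for some genes they made up nearly all of it. Over the 12 pollen libraries, 8 genes drew at least 50% of their FPKM from such transcripts: RPN1A (99.7%), RPN1B (97.8%), PBE2 (97.8%), PAC1 (97.4%), PAF1 (90.7%), RPT6B (89.6%), RPT5B (86.0%) and PBD2 (51.9%). For 20 genes the share was under 1%. Among 10140 nuclear genes with a mean of at least 5 FPKM in pollen, 39.2% drew 50% or more from unnamed transcripts. In microspores 3 of the 38 genes did so (RPT5B with 77.6%, RPT5A with 71.4% and RPT6B with 54.0%), against 14.0% of 15236 genes. Under annotated transcripts alone, several shares turned over. PBE1 made up 95.6% ± 3.78 (SD, n = 3) of its pair in V-Mt VC, PAF1 19.1% ± 5.04 (SD, n = 3) instead of 71.4% ± 2.44 (SD, n = 3), and RPT6A 77.5% ± 6.99 (SD, n = 3) instead of 26.4% ± 2.11 (SD, n = 3). In WT VC, RPT5A made up 78.3% ± 8.44 (SD, n = 3) instead of 51.1% ± 7.00 (SD, n = 3). The low sperm share of PBE1 also turned over, to 66.7% ± 57.7 (SD, n = 3) for V-Mt SC and 73.2% ± 46.5 (SD, n = 3) for WT SC, on mean pair sums of 1.17 and 1.64 FPKM. RPN1A made up 12.9% ± 3.21 (SD, n = 3) of its pair in V-Mt VC, on a pair sum of 13.9 FPKM in place of 999.5. The pollen levels of RPN1A, RPN1B, PBE2, PAC1, PAF1, RPT6B and RPT5B, and shares that include them, therefore rest mostly on transcripts whose structure is not given in the tables. The PAA, PBB and PAD shares in pollen did not, as their genes drew under 1% from unnamed transcripts.

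**Figure D4:**
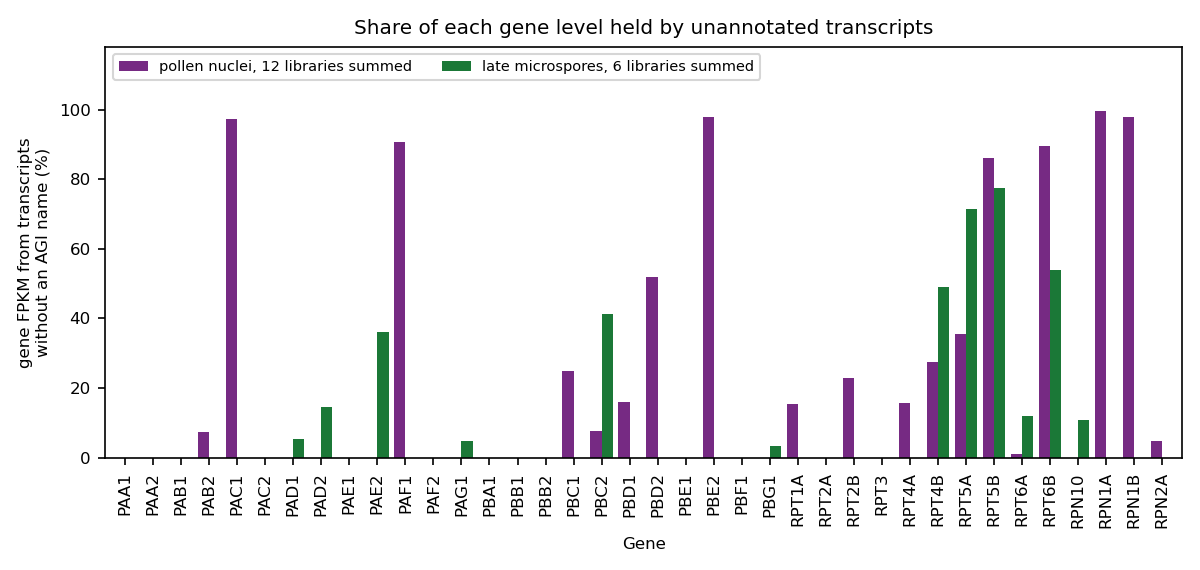
Percent of each gene's summed FPKM that came from transcripts without an AGI name, in the 12 pollen libraries and the 6 microspore libraries. In pollen the bars of PAC1, PAF1, PBE2, RPN1A and RPN1B exceed 90%, and in microspores those of RPT5A, RPT5B and RPT6B exceed 50%.

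Subunits enter the 20S core in equal numbers, but their RNA levels were not even. In V-Mt VC the paralogs of PAF summed to 562, 603 and 557 FPKM and those of PAD to 17.9, 18.2 and 18.9, a ratio of 29.5 to 33.2 between the highest and the lowest of the 14 core subunits. PAB, the next lowest, summed to 25.8, 25.4 and 31.0. The median subunit stood at 171 to 196 FPKM. In microspores the ratio between highest and lowest was 4.76 to 7.83 in V-Mt LMS and 2.54 to 7.92 in WT LMS, and PAD summed to 163, 124 and 125 and 136, 105.3 and 130.2 FPKM. The 6 ATPase subunits, with RPT1 taken from RPT1A alone, were more even in V-Mt VC, from 116 to 127 FPKM for RPT2 to 392 to 417 for RPT5, a ratio of 3.09 to 3.61. In WT VC the core subunits with most RNA were PAB (16.0 to 18.4 FPKM) and PBB (14.1 to 19.7), and the median subunit stood at 1.83 to 2.26. In V-Mt SC, PBE summed to 125, 143 and 168 FPKM and PAF to 59.0, 69.1 and 64.2, while the median core subunit stood at 3.58 to 7.42.

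**Figure D5:**
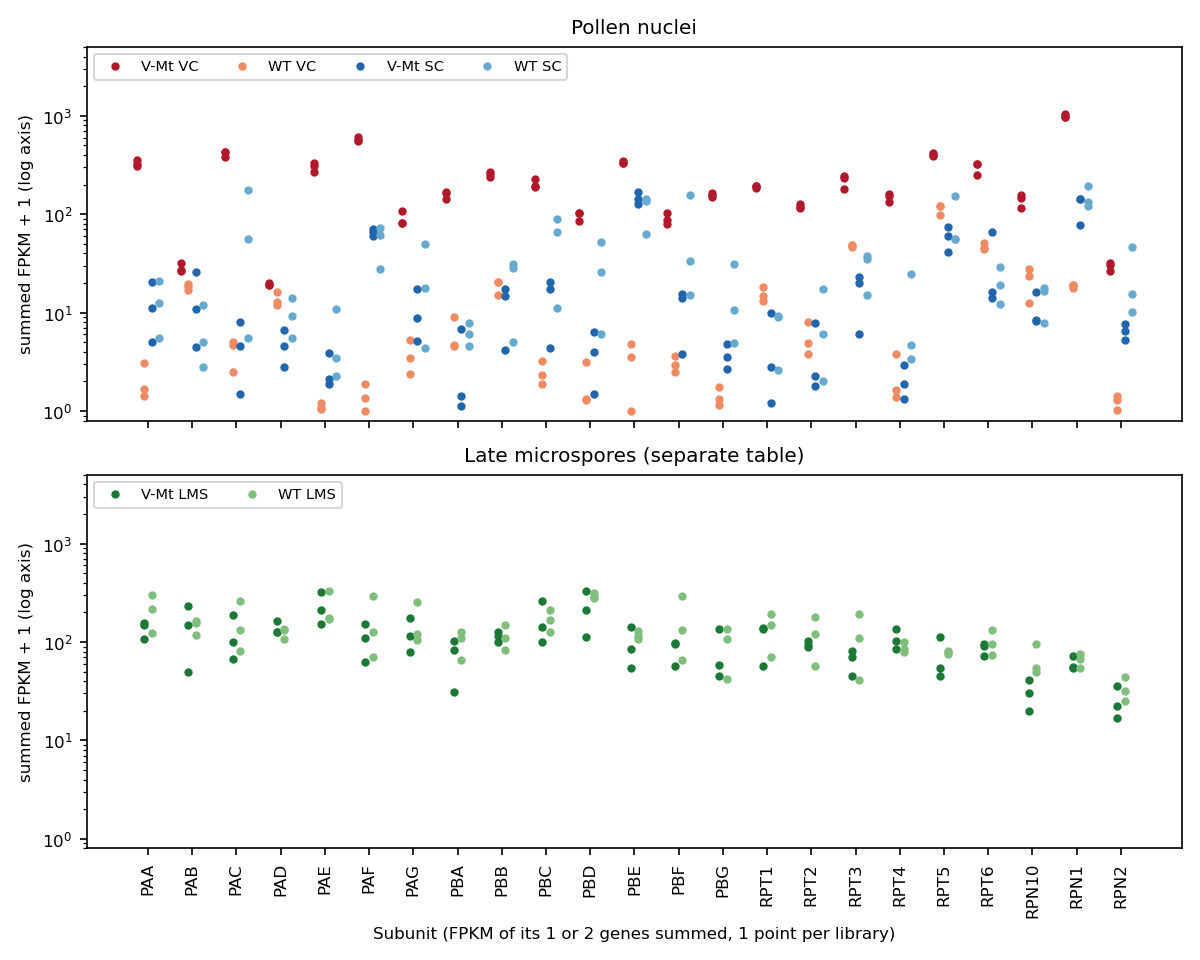
FPKM summed over the genes of each of the 23 subunits, plus 1, on a log axis, with 1 point per library. In V-Mt VC, PAB, PAD and RPN2 lie well below most other subunits, but RPN2 is RPN2A alone here. Its paralog AT1G04810 (RPN2B), outside the list and not summed, held 63.8, 54.8 and 49.95 FPKM in V-Mt VC. RPT1 is likewise RPT1A alone, without AT1G53780 (RPT1B) at 149.95, 174 and 140.3 FPKM in V-Mt VC and 64.5, 93.6 and 99.3 in WT VC. In WT VC most core subunits lie under 5 FPKM, and in microspores the subunits lie between 16.0 and 329 FPKM.

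In sperm nuclei the line made little difference that passed the test. Of the 38 genes, 0 were called higher and 2 lower in V-Mt SC than in WT SC, where 1.18% of tested genes were called higher and 3.93% lower. The 2 were PAD2, with a log2 fold of -2.21 (SE 0.52), and PBD1, with -3.04 (SE 0.75). For 5 genes every V-Mt SC library lay below every WT SC library (11.6% of tested genes) and for 0 above (4.72%). Without WT SC replicate 3 the count was 9 lower and 1 higher, and other alternatives gave 0 or 1 lower, so both calls depended on single libraries and settings. Summed levels in WT SC replicates 1 and 2 were 942 and 1157 FPKM and in replicate 3 392 FPKM. The leaf photosynthesis markers of these libraries moved the same way, at 60.4, 52.6 and 4.90 FPKM, and at 0 to 6.09 in V-Mt SC; LHCA3 was at 0 in all sperm libraries but WT SC replicates 2 and 3, and the part of these markers was not tested. Sperm markers summed to 17340, 19053 and 16817 FPKM in WT SC, and vegetative markers to 1107, 1129 and 813.

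Within WT, sperm nuclei differed from vegetative nuclei gene by gene. Of the 38, 13 were called higher and 3 lower in WT SC than in WT VC, where 27.3% of tested genes were called higher and 13.1% lower. Groups did not overlap for 18 genes higher in WT SC (32.6% of tested genes) and 7 lower (16.3%). The higher ones included PBE2 (log2 fold 5.40, SE 0.52), PAF1 (4.75, SE 0.33), RPN2A (3.98, SE 0.49) and RPN1A (2.92, SE 0.28). Transcripts without an AGI name held 97.8%, 90.7% and 99.7% of the pollen levels of PBE2, PAF1 and RPN1A, but 4.82% for RPN2A. From annotated transcripts alone, PBE2, PAF1 and RPN1A reached at most 3.13, 3.22 and 0.35 FPKM in WT SC. The count called higher was then 8 instead of 13. Those called lower were PAB2 (-2.46, SE 0.40), PAD1 (-1.77, SE 0.57) and RPT6B (-1.09, SE 0.31). By class, 6 of 11 beta genes and 2 of 4 RPN genes were called higher, but 1 of 10 RPT genes higher and 1 lower. Counts in this comparison moved with scaling: quantile normalization gave 9 higher and 10 lower, and median-ratio scaling 10 and 7. PBA1 turned from a log2 fold of 0.05 to -1.47 under quantile normalization.

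In V-Mt, sperm nuclei held less RNA of most subunits than vegetative nuclei. Of the 38 genes, 35 were called lower and 0 higher in V-Mt SC than in V-Mt VC, where 58% of tested genes were called lower and 13.4% higher. The 3 not called were PBE2, with a log2 fold of -0.22 (SE 0.52), PAD2 with -0.30 (SE 0.52) and PAB1 with -1.89 (SE 1.06). Among those called, PAB2 turned from a log2 fold of -1.27 to 0.42 under quantile normalization. Without overlap, 35 genes were lower (61.2% of tested genes) and 0 higher (14.8%). The difference between the line effects in the 2 cell types was called higher in VC for 33 genes and lower for 0, against 60.5% and 7.18% of all tested genes. These comparisons share the V-Mt VC and WT VC libraries with the first one and add no independent count.

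In late microspores no difference between the lines was called. All 38 genes were tested among 18002, and 0 were called higher and 0 lower, as were 0% of all tested genes in either direction. An unadjusted p under 0.05 in limma was found for 0 of the 38 and for 1195 of all 18002 genes. At so low a background share, the 0 is not read as a result about these genes. Log2 folds ran from -1.13 (SE 0.50) for RPN10 to 1.26 (SE 1.16) for PAF2, with a median of -0.28 over all of them and -0.13 over all tested genes. At this spread between libraries, differences of that size were not detectable. Larger ones could be missed as well: REF6, at 1160.1, 1175 and 506 FPKM in V-Mt LMS and 77.7, 108 and 125 in WT LMS, was not called either. The V-Mt and WT libraries did not overlap for 3 genes, 2 higher and 1 lower in V-Mt, where 4.54% and 7.52% of all tested genes did so. The 38 genes were well expressed in both lines, with 36 to 37 of them at 10 FPKM or more per library. Leaf photosynthesis markers summed to 5091 to 10779 FPKM in these libraries and tapetum markers to 996 to 1527, and the part of these markers was not tested.

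Other genes of the pathway were listed by role, with 21 further 19S and core-bound subunits, 7 assembly factors and regulators, and 19 genes of ubiquitin supply and delivery. These lists, too, were made with results of the series known, so their counts and folds are given as a description, beside the 62.5% of all tested genes called higher in V-Mt VC against WT VC and their median log2 fold of 1.92. Of the 21 further subunits, 18 were called higher and 0 lower, with a median log2 fold of 3.66, and 8 of the 21 passed the expression filter only through V-Mt VC. RPN12A, a lid subunit, held 228, 241 and 197 FPKM in V-Mt VC and 0, 1.85 and 1.54 in WT VC (log2 fold 6.84, SE 0.55). RPN8A, also of the lid, held 196, 198 and 151 FPKM in V-Mt VC and 0, 0.23 and 0.14 in WT VC (log2 fold 7.34, SE 0.92). AT3G11270 (MEE34), listed beside it, had a log2 fold of 6.32 (SE 0.64), and AT3G53970, annotated as proteasome inhibitor-like, of 6.62 (SE 0.40). The last of these also stood at 39.6, 44.6 and 90.7 FPKM in V-Mt SC against 83.8, 117 and 45.5 in WT SC. PA200, an alternative activator of the core, held 372, 361 and 319.9 FPKM in V-Mt VC and 1.72, 4.90 and 4.87 in WT VC, and 54.4, 69.9 and 49.9 FPKM in V-Mt SC against 149, 191 and 60.6 in WT SC. The 3 not called were AT1G53780, DSS1(I) and DSS1(V), and DSS1(I) was highest in sperm nuclei, at 390.3, 475 and 415 FPKM in V-Mt SC against 428, 500.3 and 317 in WT SC, against 75.5, 82.9 and 95.0 FPKM in V-Mt VC.

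All 7 assembly factors and regulators were called higher in V-Mt VC, with a median log2 fold of 3.09 against 1.92 over all tested genes. The filter was passed only through V-Mt VC by 2 of them, AT3G15180 and NAC53. The 2 genes for UMP1, a chaperone of core assembly, held 91.2, 90.4 and 84.1 FPKM in V-Mt VC and 0, 0 and 0 in WT VC (AT1G67250), and 91.9, 83.7 and 112 FPKM in V-Mt VC and 6.71, 13.0 and 13.7 in WT VC (AT5G38650). The former is listed at 0 throughout WT VC, so no fold is given for it. AT3G15180, listed there and annotated as an ARM repeat protein, had a log2 fold of 7.44 (SE 0.93). NAC53 held 28.7, 33.2 and 22.9 FPKM in V-Mt VC and 0, 0 and 0.09 in WT VC (log2 fold 4.82, SE 0.60) and NAC78 held 65.0, 71.9 and 54.4 FPKM in V-Mt VC and 6.56, 5.72 and 7.57 in WT VC (log2 fold 3.09, SE 0.41). In sperm nuclei NAC53 was at 0.64, 0 and 0 FPKM in V-Mt SC against 9.62, 3.87 and 0.45 in WT SC, and NAC78 at 27.2, 23.9 and 67.7 FPKM in V-Mt SC against 48.2, 64.8 and 30.5 in WT SC. NAC78 RNA was thus present in every group while NAC53 was near the floor in WT VC and V-Mt SC.

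Of 18 tested genes of ubiquitin supply and delivery 12 were called higher and 0 lower, a share close to the 62.5% of all tested genes, and their median log2 fold was 2.60. Those not called were the shuttles DSK2A and DSK2B and the polyubiquitin genes UBQ3, UBQ10, UBQ11 and UBQ14. UBQ10 stood at 1908, 2022 and 1932 FPKM in V-Mt VC and 1479.6, 1107 and 1201 in WT VC. The shuttle RAD23D held 295, 263 and 240.5 FPKM in V-Mt VC and 2.1, 2.12 and 2.17 in WT VC (log2 fold 6.41, SE 0.32) and the deubiquitinase UBP6 held 100.99, 95.3 and 86.5 FPKM in V-Mt VC and 2.53, 2.06 and 1.94 in WT VC (log2 fold 4.91, SE 0.23). Both were also abundant in sperm nuclei, RAD23D at 233, 196 and 200.03 FPKM in V-Mt SC against 188, 67.05 and 127 in WT SC and UBP6 at 109.6, 109.5 and 96.0 FPKM in V-Mt SC against 71.4, 61.1 and 93.4 in WT SC. RAD23C had a log2 fold of 4.75 (SE 0.73) and UBA2, a ubiquitin-activating enzyme, of 4.36 (SE 0.25), and UBA2 passed the filter only through V-Mt VC.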

How the data were processed

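Pollen nuclei (12 libraries) and late microspores (6 libraries) were deposited by the authors as FPKM per gene and per isoform, in 4 tables. Per the submitters' processing notes, pollen reads were handled on TAIR10 with RSEM 1.3.1, Bowtie2 2.3.5, HISAT2 2.1.0 and StringTie 1.3.5, and microspore reads with RSEM 1.3.1, Bowtie2 and HISAT2 2.1.0; no source used here gives roles or settings. The tables carry no counts, so no count test was run, and depth was estimated from the spacing of low FPKM values (transcripts of 1200 to 2500 bases, assumed fragment of 250 bases). From the genes of the microspores 2 stray lines were left out.

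Levels were tested with limma 3.58.1 (R 4.3.3, trend) on log2(FPKM + 1), within each table, for genes with at least 3 libraries at 1 FPKM or above, 2-sided with Benjamini-Hochberg adjustment at 0.05; folds on this scale understate changes of low genes. The procedure was tested on simulated data. An exact permutation of 3 against 3 libraries cannot go below p = 0.1 and was not used. Members, lists and rules were chosen with earlier results of these data known. Named genes are members of pairs whose share spans over 25 points, single-copy subunits, members at 0 throughout a group, and up to 4 called genes with the largest fold from each other list. Transcripts were called annotated where they carry an AGI isoform name. Promoters were the 250 bases before the gene start in TAIR10.1; coding sequences of paralogs were compared by global alignment (Biopython 1.88) in place of proteins. Alternatives were 2 pseudocounts, 2 filters, 3 scalings, a replicate block, fits on the compared groups, leaving out each library, and, added after seeing the data, annotated transcripts only.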

Additional observations from a re-analysis of the deposited data

Results flagged for a closer look

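The effect of the V-Mt line differed between vegetative and sperm nuclei in the limma interaction test (adjusted p under 0.05 over 19733 genes). It was higher in vegetative nuclei for 33 of the 38 proteasome genes, against 60.5% of all tested genes. The same holds for 18 of 21 further 19S and core-bound subunits, 6 of 7 assembly factors and regulators, and 15 of 18 tested genes of ubiquitin supply and delivery. The lists were made with these levels known and the interaction uses the same V-Mt VC and WT VC libraries, so the counts are a description. Of the 38 genes, 5 passed the expression filter only through V-Mt VC, as did 8 of the further subunits, 2 of the assembly factors and regulators, and 1 gene of ubiquitin supply and delivery. Groups of 3 libraries are too small for a test of single outlying libraries.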

How the results depend on the processing

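Calls of the 38 genes in V-Mt VC against WT VC stood at 33 to 34 higher when any 1 library was left out. Of 832 recomputed gene folds, 823 kept the same call (higher, lower or not called). The median log2 fold over all tested genes in this comparison was 1.92 as deposited, 1.38 by median ratios, -0.02 by quantiles, 1.95 with all libraries rescaled to 1 total, 3.72 with a pseudocount of 0.1 and 0.84 with 5, while the median of the 38 was 5.12, 4.46, 3.47, 5.17, 6.59 and 3.51. Under quantile normalization 3 genes were called lower, PAB2 turned to -2.15 and PAD1 to -1.88; in the interaction 2 were called lower, PAD1 was at -2.57 and PAD2 at -0.19; in V-Mt SC against V-Mt VC, PAB2 turned to 0.42; and in WT SC against WT VC 10 were called lower and PBA1 was at -1.47. Median-ratio scaling gave 7 lower in WT SC against WT VC and 1 lower in the interaction. The cause of these shifts beyond the scaling itself was not tested.

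The count lower in V-Mt SC against WT SC (2) became 1 with a pseudocount of 0.1, with the stricter filter (a mean of at least 5 FPKM) and with the replicate block, and 0 with a pseudocount of 5, no filter, each of the 3 scalings, only the 2 groups, and annotated transcripts. Leaving out 1 library gave 0 to 9 lower and 0 to 1 higher there, 0 to 1 lower in the interaction, and 9 to 18 higher and 1 to 5 lower in WT SC against WT VC. Without WT SC replicate 3 the counts were 9 lower and 1 higher in V-Mt SC against WT SC and 18 higher in WT SC against WT VC; in the latter 5 were lower without V-Mt SC replicate 3 and 1 without WT VC replicate 2 or 3. Fitting only the 2 groups gave 5 lower in WT SC against WT VC. Annotated transcripts gave 8 higher in that comparison and 1 lower in the interaction. They also moved 33 of 87 group means of paralog shares by more than 1 SD, and 25 of the 87 by over 25 points. Same-numbered libraries deviated together little (mean correlation -0.02 in pollen, with 2 of 18 pairs over 0.1, and -0.07 in microspores), so the numbers were not taken as pairs. For vegetative and sperm libraries of the same line and number, the correlations were 0.049, 0.033 and 0.102 in V-Mt. They were 0.078, -0.064 and 0.145 in WT. With unlike numbers, they ran from -0.162 to 0.137. The replicate block changed no other count by over 1.5 times. FPKM without counts limits what can be said of levels under about 0.1 FPKM in pollen and 0.5 in microspores.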
